A study of Homo sapiens with 8 samples.

Results

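The chromatin state of 10 genes of the epithelial to mesenchymal transition was described in PC9 cells, a human lung adenocarcinoma line, with and without an inhibitor of EZH2. The genes were taken from a list, not from measured values, and were 10 of the 20090 protein-coding genes on chromosomes 1 to 22 and X. They comprised 6 transcription factors (SNAI1, SNAI2, ZEB1, ZEB2, TWIST1 and TWIST2) and 4 structural genes (CDH1, CDH2, VIM and FN1). Control PC9 cells received DMSO and treated cells received 1 μM GSK126, and both were harvested after 5 days. Chromatin of each was mixed with D. melanogaster chromatin and precipitated with an antibody to H3K27me3 or to H3K4me3 together with an antibody to the fly histone variant H2Av. Each mark and treatment had 2 libraries, which gave 8 libraries and 14 deposited lists of enriched regions. Neither the labels nor the lists say whether the libraries of a group came from separate cultures, although the study calls them biological replicates, so the spread between them may be partly technical.

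The epithelial to mesenchymal transition is the program by which sheet-forming epithelial cells give up cell-to-cell junctions and take on a migratory, matrix-producing state. SNAIL, ZEB and TWIST proteins are its best-known transcription factors, and the SNAIL and ZEB proteins bind E-box sequences and repress the epithelial cadherin gene CDH1. H3K27me3 is written by EZH2, the catalytic subunit of Polycomb repressive complex PRC2, and lies over repressed developmental genes, whereas H3K4me3 marks the starts of genes that are active or poised.

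The quantity reported is the length of a gene, with the 2 kb before its start, that lay under islands, the enriched regions called by SICER from runs of 200 bp windows. Each H3K27me3 library, and each H3K4me3 library of treated cells, had 2 lists. In the standard lists, human tags (mapped reads) had been removed at random until both libraries of a replicate were equal. In the spike-in lists, human tags had been scaled by a factor taken from the fly tags, those of the control library over those of the treated one. The H3K4me3 library of control cells had a single list, which served both comparisons. Tags per 200 bp window, recovered from the scores of short islands, ranged from 0.263 to 2.33 over the lists. The spike-in list of treated cells held 23.1% and 19.6% of the tags of its control for H3K27me3, and 83.6% and 86.9% for H3K4me3, in replicates 1 and 2. The standard lists of a replicate differed by at most 0.00087%. An island missing from a list therefore says only that the region did not reach the caller's threshold at that number of tags. The H3K4me3 lists of replicate 2 were much shallower than those of replicate 1, and values are compared only within a replicate. An exact sign-flip permutation test on 2 pairs cannot give a two-sided p below 0.5, so the differences are given as values in both replicates with no test. PC9 cells carried H3K4me3 over the annotated start of 5 of 6 epithelial marker genes (6 of 6 when the start of the canonical transcript was used), of 0 of 3 lymphocyte genes, of 1 of 3 fibroblast genes (COL1A1) and of the 1 endothelial gene examined (CDH5). RNA was not measured in these libraries.

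In control cells the 10 genes fell into 4 chromatin states at the gene start. An island of H3K4me3 alone covered the 2 kb on either side of the start (at least 200 bp, in both replicates) of CDH1, FN1, ZEB1, SNAI2 and TWIST1. Both marks were found at SNAI1 and VIM. H3K27me3 alone was found at TWIST2. Neither mark was found at the annotated start of CDH2, which encodes N-cadherin, or of ZEB2. Counted by mark, 7 of the 10 genes had H3K4me3 at the start, where 60.4% of all protein-coding genes did, and 3 had H3K27me3, where 19.2% did. The 2 genes with both marks compare with 5.78% of all genes, and the 2 with neither compare with 26.2%. ZEB2 joined the genes with H3K4me3 when the start of its canonical transcript was taken, which made 8 of 10, beside 63.5% of all genes. Over the whole gene region, H3K27me3 reached 4 of the 10 gene regions in both control replicates (VIM, SNAI1, TWIST1 and TWIST2) and H3K4me3 reached 9, all but CDH2. Over all protein-coding genes these shares were 27.5% and 67.9%.

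The promoters of 3 genes with different states are printed. They are the 300 bases from 250 before to 50 after the RefSeq gene start (GRCh38.p14), placed on GRCh37 by an exact match, and are written 5′ to 3′ along the gene. They are in lower case throughout because none held the E-box core bound by SNAIL and ZEB proteins, which was searched on both strands as CAGGTG and CACCTG and is set in capitals in a later sequence. TWIST2 lay under H3K27me3 over all 300 bases in both control libraries (chr2:239756476-239756775, plus strand), FN1 under H3K4me3 over all 300 bases (chr2:216300742-216301041, minus strand), and CDH2 under neither (chr18:25757045-25757344, minus strand).
TWIST2 promoter: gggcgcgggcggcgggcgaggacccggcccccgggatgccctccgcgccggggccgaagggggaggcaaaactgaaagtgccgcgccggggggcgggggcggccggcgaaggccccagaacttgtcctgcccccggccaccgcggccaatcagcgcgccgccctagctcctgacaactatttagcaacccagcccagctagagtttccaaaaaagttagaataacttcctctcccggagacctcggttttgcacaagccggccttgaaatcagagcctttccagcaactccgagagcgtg
FN1 promoter: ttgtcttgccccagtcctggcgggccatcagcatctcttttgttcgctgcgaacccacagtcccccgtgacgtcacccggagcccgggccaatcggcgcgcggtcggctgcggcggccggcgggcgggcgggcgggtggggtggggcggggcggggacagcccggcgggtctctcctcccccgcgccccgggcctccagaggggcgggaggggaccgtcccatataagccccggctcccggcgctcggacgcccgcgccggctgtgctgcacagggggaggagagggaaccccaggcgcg
CDH2 promoter: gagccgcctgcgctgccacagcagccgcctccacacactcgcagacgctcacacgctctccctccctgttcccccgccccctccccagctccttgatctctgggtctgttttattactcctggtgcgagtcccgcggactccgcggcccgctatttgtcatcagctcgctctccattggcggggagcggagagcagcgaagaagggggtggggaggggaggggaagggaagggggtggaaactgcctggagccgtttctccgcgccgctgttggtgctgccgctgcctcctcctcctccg
These windows held 29 CpG dinucleotides in TWIST2, 38 in FN1 and 23 in CDH2, all at or above the median of 22 over the 15289 protein-coding promoters of the same table (10th to 90th percentile, 3 to 40). The table held 3 more of the 10 genes, with 17 CpG in ZEB1, 14 in ZEB2 and 10 in VIM, all below that median. CDH1, SNAI1, SNAI2 and TWIST1 were not matched. Of these 6 genes, ZEB1 had 1 E-box core, 57 bases before its RefSeq start, and VIM, ZEB2, FN1, TWIST2 and CDH2 had none in the window, beside 19.8% of all promoters with at least 1.

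With GSK126, the H3K27me3 islands over SNAI1, VIM and TWIST1 were absent from the spike-in lists of both replicates, and those over TWIST2 were shorter. The 10 genes together had 46.04 kb under H3K27me3 in DMSO and 32.93 kb in GSK126 in replicate 1, and 45.6 kb and 31.53 kb in replicate 2. The log2 ratio was −0.51 ± 0.03 (SD, n = 2 pairs). Of the 4 genes covered in both control libraries, all 4 were covered over a shorter length in both replicates, and 89.7% of the 5525 protein-coding genes so covered did the same. A fall to at most 0.5 of the control was seen for 3 of the 4, beside 56.0% of all covered genes, and complete absence for 3 of the 4, beside 31.5%. None of the 4 was covered over a longer length, beside 0.290%. In the standard lists 3 of the 10 genes (SNAI1, TWIST1 and TWIST2) were covered in both control libraries, beside 25.2% of all genes. Of these, SNAI1 and TWIST2 were covered over a shorter length in both replicates, 2 of 3 beside 56.4%, and 0 over a longer length, beside 5.46%. TWIST2 alone held most of the length. Without it the 9 other genes had 7.08 and 6.04 kb in DMSO, and 3.6 and 0 kb in GSK126.

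**Figure D1:**
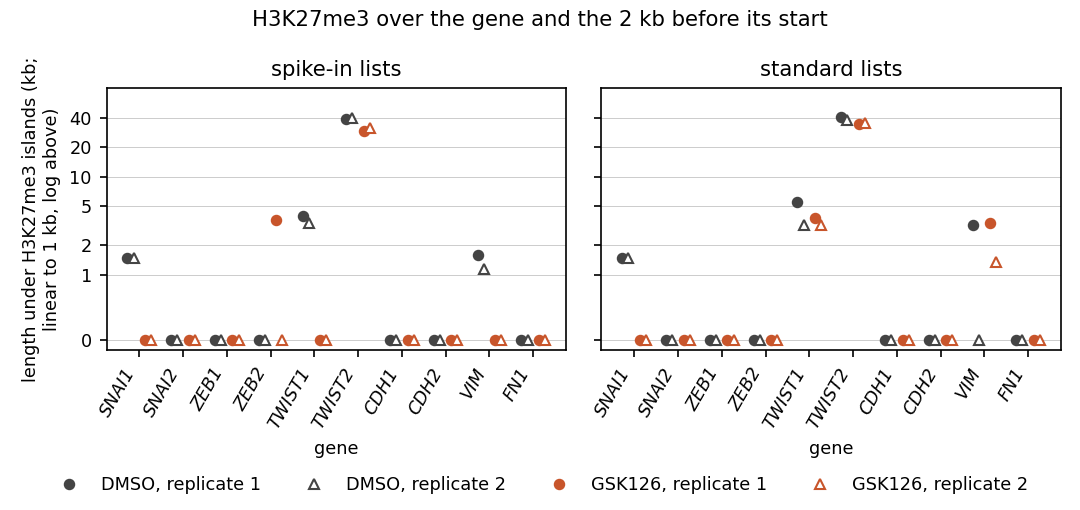
Length of each gene and its 2 kb upstream under H3K27me3 islands (kb, linear up to 1 kb and logarithmic above), in the spike-in lists (left) and the standard lists (right), with 1 point per library, DMSO in grey and GSK126 in orange, replicate 1 filled and replicate 2 open. In the spike-in lists SNAI1, TWIST1 and VIM go from between 1.16 and 4 kb to 0 in both replicates, while TWIST2 goes from about 39 kb to between 29.3 and 31.5 kb, and in the standard lists only SNAI1 goes to 0 in both.

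SNAI1 encodes SNAIL, a zinc-finger repressor of CDH1. Its H3K27me3 island covered 1484 bp of the gene region in DMSO in replicate 1 and 1484 bp in replicate 2, and 0 bp in both GSK126 libraries, in the spike-in lists. The standard lists gave the same 4 values, so the island was also absent when control and treated libraries held equal numbers of tags. In the spike-in lists 31.5% of the covered protein-coding genes also had no island in either treated replicate. Among the 4 genes SNAI1 was the only one with no H3K27me3 island in treated cells in the standard lists, where 8.92% of the covered protein-coding genes had none in either replicate. The control islands were modest, with scores of 79.7 and 78.6 in the standard lists of replicates 1 and 2, where the lowest scores kept by the caller were 56.67 and 38.24.

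The SNAI1 island lay upstream of the gene and ended 0.52 kb before its start in all 4 control lists. It began 2.72 kb before the start in replicate 1 and 3.72 kb before it in replicate 2. No annotated gene lies under it. The H3K4me3 island of SNAI1 straddled the start, from 1.92 kb before to 1.88 kb after it in DMSO in replicate 1 and from 0.72 kb before to 0.68 kb after it in replicate 2. It shared 1400 bp and 200 bp with the H3K27me3 island in replicates 1 and 2, so SNAI1 was the only one of the 10 genes with both marks on the same bases in both control libraries, in the spike-in and in the standard lists. H3K4me3 covered 3800 bp in DMSO and 3800 bp in GSK126 in replicate 1, and 1400 bp and 1800 bp in replicate 2, in the spike-in lists. The standard lists had 3000 bp and 1800 bp with GSK126. SNAI1 therefore showed no common direction for H3K4me3 in the standard lists, being shorter in replicate 1 and longer in replicate 2.

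VIM encodes vimentin, the intermediate filament of mesenchymal cells. In the spike-in lists its H3K27me3 covered 1600 bp in DMSO in replicate 1 and 1161 bp in replicate 2, and 0 bp in both GSK126 libraries. At equal numbers of tags the values were 3200 bp in DMSO and 3361 bp in GSK126 in replicate 1, and 0 bp and 1361 bp in replicate 2. The covered length of VIM was thus shorter after treatment in both replicates of the spike-in lists and longer in both of the standard lists. In replicate 1 of the standard lists the lengths were close, and the score within the region was 64.2 in DMSO and 56.2 in GSK126. The control islands were weak. They scored 51.1 and 60.5 in the spike-in lists, where the lowest scores kept were 41.32 and 42.74. The standard control island of replicate 1 scored 64.2, where the lowest kept was 56.67. A direction for VIM is therefore not settled. The islands lay mainly before the start, over the antisense transcript VIM-AS1. In DMSO they ran from 1.84 to 0.24 kb before it in replicate 1 and from 2.84 to 0.84 kb before it in replicate 2 (spike-in lists). H3K4me3 began within 0.16 kb of the start and ran into the gene, to 3.36 kb in replicate 1 and 2.76 kb in replicate 2, so the 2 marks of VIM lay next to each other and shared 0 bp in both control libraries of the spike-in lists. At equal numbers of tags they shared 1400 bp in DMSO and 1400 bp in GSK126 in replicate 1, and 0 bp in both in replicate 2. H3K4me3 covered 3400 bp in all 3 lists of replicate 1. In replicate 2 it covered 2600 bp in DMSO and 2400 bp in both GSK126 lists.

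**Figure D2:**
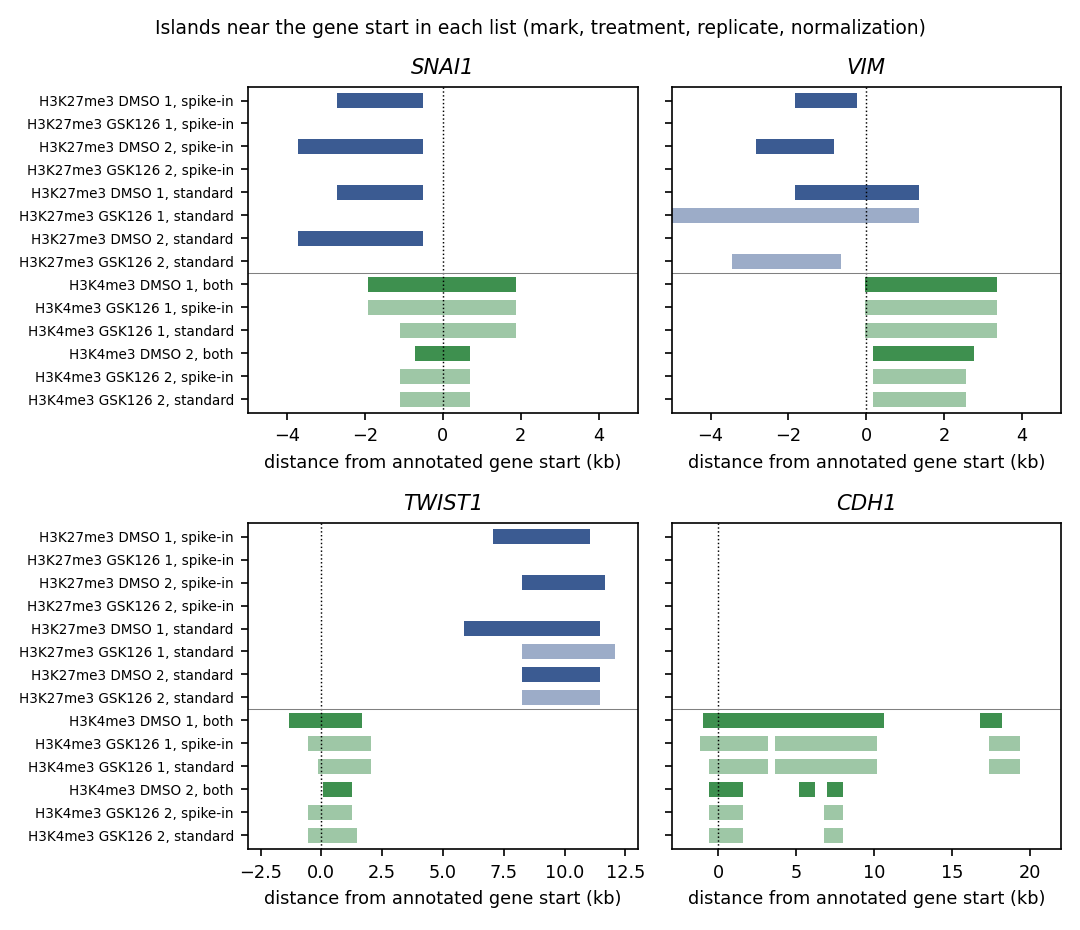
Islands near the start of SNAI1, VIM, TWIST1 and CDH1, with 1 row per list (mark, treatment, replicate and normalization), the distance from the annotated gene start in kb along the gene on the horizontal axis, H3K27me3 in blue, H3K4me3 in green, DMSO dark and GSK126 pale. SNAI1 has H3K27me3 bars in the 4 DMSO rows and none in the 4 GSK126 rows, the TWIST1 H3K27me3 bars lie beyond 5.86 kb from the start, and CDH1 has H3K4me3 bars only.

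TWIST1 and TWIST2 encode basic helix-loop-helix factors. TWIST1 had H3K4me3 at its start and H3K27me3 only at a distance. The H3K27me3 islands of TWIST1 covered 4000 bp in DMSO in replicate 1 and 3400 bp in replicate 2, and 0 bp in both GSK126 libraries, in the spike-in lists. At equal numbers of tags they covered 5600 bp in DMSO and 3800 bp in GSK126 in replicate 1, and 3200 bp in both in replicate 2, so the standard lists did not separate the groups. These islands lay between 5.86 and 12.06 kb past the start, beyond the end of the canonical 2-exon transcript (chr7:19155091-19157259, minus strand) and inside a longer annotated form of the gene. With the region limited to the canonical transcript and its 2 kb upstream, TWIST1 had no H3K27me3. H3K4me3 over TWIST1 covered 3000 bp in DMSO and 2600 bp in GSK126 in replicate 1, and 1200 bp and 1800 bp in replicate 2 (spike-in lists), so the replicates moved in opposite directions. They did so in the standard lists as well, with 2200 and 2000 bp in GSK126.

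TWIST2 was the 1 gene of the 10 under a broad H3K27me3 domain. In the spike-in lists H3K27me3 covered 38958 bp in DMSO (50.2% of the region) and 29328 bp in GSK126 (37.8%) in replicate 1, and 39558 bp (51%) and 31528 bp (40.7%) in replicate 2. The log2 ratio was −0.37 ± 0.06 (SD, n = 2 pairs), and the treated value was the lower of each pair, as for 89.7% of all covered genes. The standard lists gave 40958 bp and 34758 bp in replicate 1, and 37958 bp and 35528 bp in replicate 2, a log2 ratio of −0.17 ± 0.10. The treated values were again the lower of each pair, as for 56.4% of all covered genes. The log2 ratios were −0.24 and −0.10 in replicates 1 and 2, smaller than the −0.41 and −0.33 of the spike-in lists.

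The domain of TWIST2 had a similar outline in all 8 H3K27me3 lists. In DMSO (spike-in, replicate 1) its islands ran from 16.87 kb before the start to 44.33 kb past it, with gaps, and another ran from 75.53 kb, at the 3′ end of the gene, to 107.73 kb over the non-coding gene LINC01940. No list had an H3K27me3 island between 44.93 and 75.53 kb. In all 8 lists an island began near the 3′ end, from 75.53 kb in the 4 DMSO lists and in the standard list of GSK126 in replicate 1. It began at 76.13 kb in the spike-in list of GSK126 in replicate 1 and at 75.73 kb in both GSK126 lists of replicate 2, just outside the gene region. Upstream, every list held an island that began between 16.87 and 17.87 kb before the start. The island between 17.33 and 21.33 kb (replicate 1) or 17.93 and 22.53 kb (replicate 2) in DMSO was absent from both spike-in lists of GSK126, and the standard lists had none there in replicate 1 and one from 19.73 to 22.53 kb in replicate 2. The stretches from about 24 to 32 kb and from 33.73 kb onward were under H3K27me3 in both treated libraries as well.

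TWIST2 also had an H3K4me3 island, not at its start but inside the gene, at a gap of the H3K27me3 domain. It ran from 15.13 to 18.13 kb past the start in DMSO in replicate 1 and from 16.33 to 17.53 kb in replicate 2. The flanking H3K27me3 islands ended 15.5 kb and resumed 17.3 kb from the start in replicate 1, and ended at 14.1 kb and resumed at 17.9 kb in replicate 2 (DMSO, spike-in lists). The gap was wider with GSK126, from 13.7 to 24.1 kb in replicate 1 and from 13.1 to 23.9 kb in replicate 2 (spike-in lists). At equal numbers of tags it ran from 15.5 to 16.7 kb in DMSO and from 13.7 to 24.1 kb in GSK126 in replicate 1. In replicate 2 it then ran from 14.1 to 18.5 kb in DMSO and from 13.9 to 19.7 kb in GSK126. The overlap of the marks was 1200 of 3000 bp in DMSO in replicate 1 and 0 bp in DMSO in replicate 2 and in both GSK126 libraries (spike-in lists). In the standard lists it was 1800 of 3000 bp in DMSO in replicate 1 and 0 bp in the others. H3K4me3 itself was shorter with GSK126, at 3000 and 1600 bp in replicate 1 and 1200 and 800 bp in replicate 2 (spike-in lists), and with 2000 and 800 bp in GSK126 in the standard lists. The 800 bp common to all 6 H3K4me3 lists were chr2:239773001-239773800 (GRCh37), within the gene. Their central 300 bases (chr2:239773251-239773550, plus strand) are printed, with the E-box core in capitals. In the standard DMSO list of replicate 1 an H3K27me3 island began within these bases, at position 239773401. No other H3K27me3 list had an island over them.
TWIST2 internal island: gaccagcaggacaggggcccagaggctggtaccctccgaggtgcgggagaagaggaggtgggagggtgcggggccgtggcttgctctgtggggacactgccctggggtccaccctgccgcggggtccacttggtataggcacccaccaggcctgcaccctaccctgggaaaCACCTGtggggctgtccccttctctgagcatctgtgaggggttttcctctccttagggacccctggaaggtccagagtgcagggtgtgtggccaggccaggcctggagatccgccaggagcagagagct
It held 1 E-box core and 7 CpG dinucleotides, beside the 29 CpG of the TWIST2 promoter printed above, which had H3K27me3 and no H3K4me3.

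**Figure D3:**
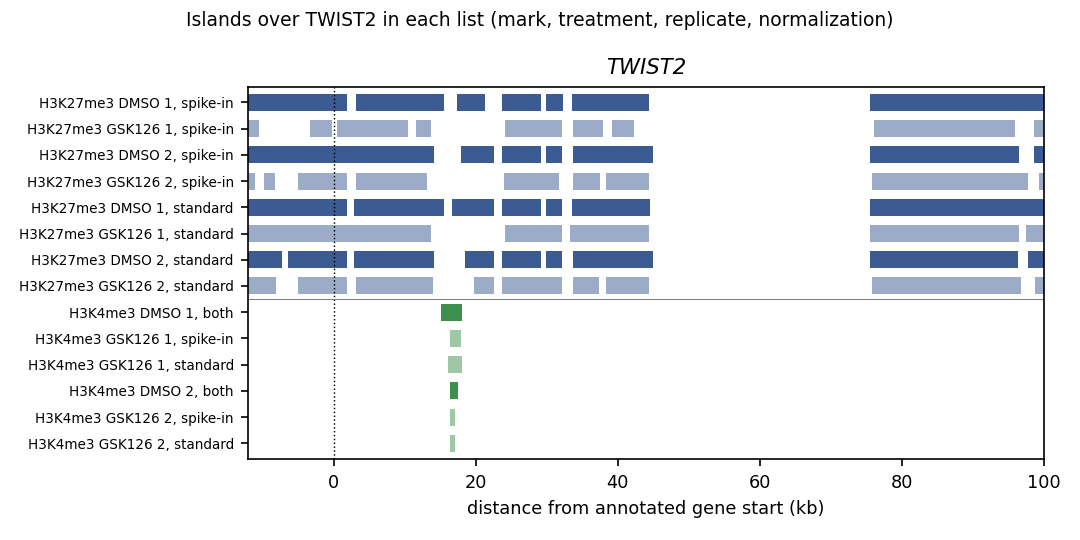
Islands over TWIST2, with 1 row per list and the distance from the annotated start in kb on the horizontal axis (islands that reach past the edges of the plot are cut there), H3K27me3 in blue, H3K4me3 in green, DMSO dark and GSK126 pale. The blue bars keep a similar outline, with a gap that holds most of the length of the green bars in the spike-in rows, and a bar begins between 75.53 and 76.13 kb in each of the 8 rows.

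The islands over TWIST2 scored higher after treatment at equal numbers of tags. The SICER score sums the enrichment of the windows of an island and depends on the number of tags, so it was compared only in the standard lists. The summed score over TWIST2 was 1473 in DMSO and 1841 in GSK126 in replicate 1, and 1442 and 1989 in replicate 2. The log2 ratio was 0.39 ± 0.10 (SD, n = 2 pairs), opposite in direction to the covered length. Over the 4114 protein-coding genes with islands in all 4 of these lists, the median log2 ratio was 0.05 and −0.06 in replicates 1 and 2, and the 10th to 90th percentiles ran from −0.82 to 0.82 and from −1.49 to 1.28, so TWIST2 lay within the range of other genes. TWIST1 had scores of 85.8 and 90.5 in replicate 1 and of 105 and 60.9 in replicate 2, with no common direction.

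**Figure D4:**
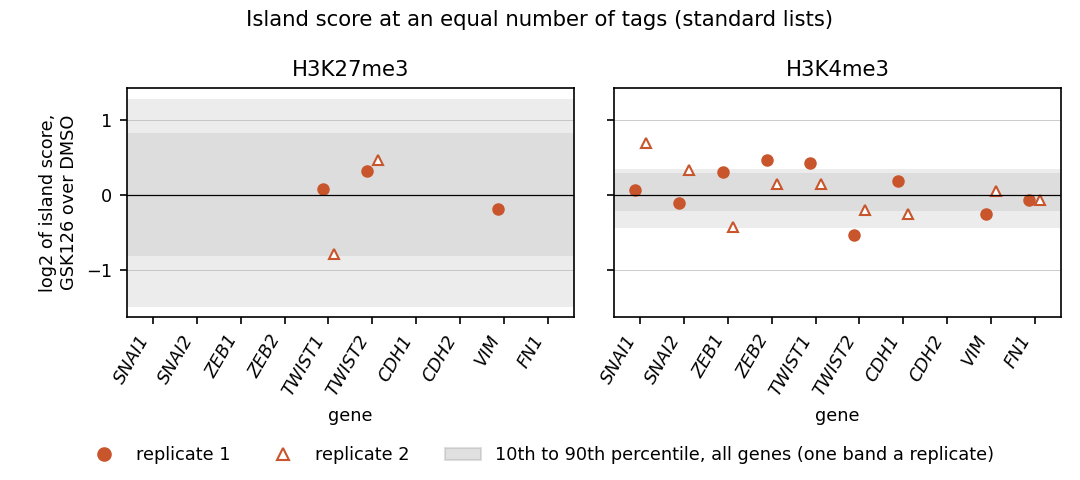
Log2 ratio of the summed island score of each gene, GSK126 over DMSO, in the standard lists, for H3K27me3 (left) and H3K4me3 (right), with replicate 1 filled, replicate 2 open and grey bands for the 10th to 90th percentile of all covered protein-coding genes in each replicate. Genes without an island in a library have no point, TWIST2 sits at 0.32 and 0.46 for H3K27me3, and most H3K4me3 points scatter about 0.

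The other 6 genes had no H3K27me3 island in any control list. CDH1, which encodes E-cadherin, CDH2, FN1, which encodes the matrix protein fibronectin, ZEB1 and SNAI2, which encodes SLUG, were at 0 bp in all 8 H3K27me3 lists. ZEB2 had 3600 bp in GSK126 in replicate 1 of the spike-in lists and 0 bp in the other 7 lists. That island had a score of 34, near the lowest score kept in its list, 31.58. Distances from these genes to the nearest H3K27me3 island in DMSO (spike-in lists) were long. They were 117 kb in both replicates for CDH1, 747 kb in both for CDH2, 152 and 157 kb for FN1, 113 and 81.3 kb for ZEB1, 171 and 986 kb for SNAI2 and 4307 kb in both for ZEB2.

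H3K4me3 over the 10 genes showed no common change with GSK126. The summed length was 50.4 kb in DMSO and 42.4 kb in GSK126 in replicate 1, and 20.6 kb and 19.4 kb in replicate 2, in the spike-in lists. The log2 ratio was −0.17 ± 0.12 (SD, n = 2 pairs), and the standard lists gave −0.19 ± 0.19. Of the 9 genes covered in both control libraries, CDH1, FN1, SNAI2 and TWIST2 were covered over a shorter length in both replicates, 4 of 9 beside 37.2% of all covered protein-coding genes, and ZEB1 over a longer length, 1 of 9 beside 8.00%. The standard lists placed the same 4 and 1 genes there, beside 37.8% and 6.77%.

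**Figure D5:**
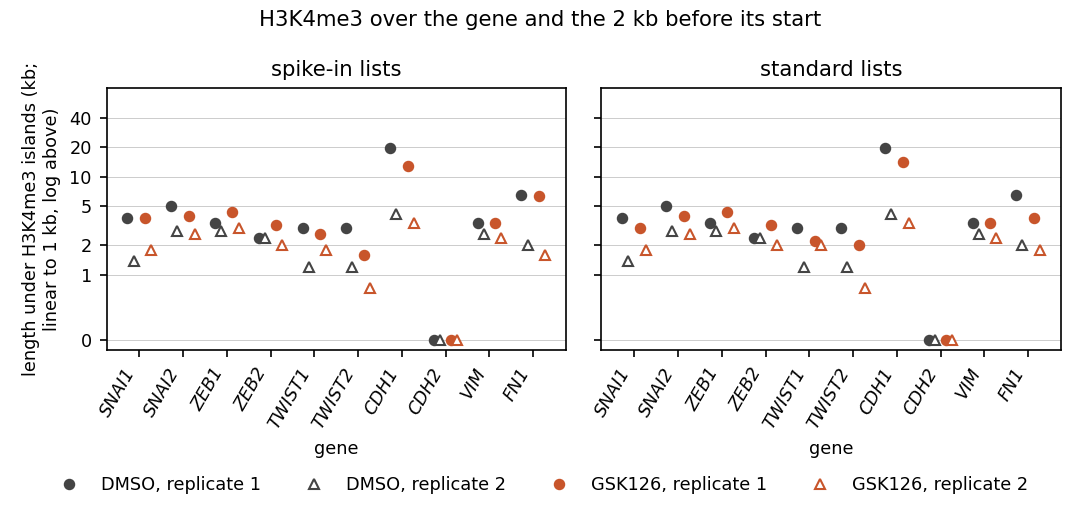
Length of each gene and its 2 kb upstream under H3K4me3 islands (kb, linear up to 1 kb and logarithmic above), in the spike-in lists (left) and the standard lists (right), with the same DMSO values in both, DMSO in grey, GSK126 in orange, replicate 1 filled and replicate 2 open. CDH2 is at 0 in every library, CDH1 has the longest cover, and the spread between replicates is wider than the spread between treatments for most genes.

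CDH1 had the longest H3K4me3 of the 10 genes. It covered 19800 bp in DMSO and 13000 bp in GSK126 in replicate 1, and 4200 bp and 3400 bp in replicate 2 (spike-in lists), and 14200 and 3400 bp in GSK126 in the standard lists. The groups overlapped because replicate 1 was far longer than replicate 2. In DMSO in replicate 1 a single island ran from 0.99 kb before the start to 10.61 kb past it, and with GSK126 it was in 2 pieces that met at a gap from 3.21 to 3.61 kb. In replicate 2 the island at the start was identical in both treatments, from 0.59 kb before to 1.60 kb after it. The difference lay in weak islands inside the gene, with scores from 38.2 to 70.6 for the 5 islands past 16 kb in DMSO in replicate 1, beside 3632 for the island at the start. Of those 5, the spike-in list with GSK126 had an island over 1, with a score of 39.3. At equal numbers of tags the summed score of CDH1 had no common direction, with log2 ratios of 0.18 and −0.25.

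FN1 had 6596 bp in DMSO and 6396 bp in GSK126 in replicate 1, and 2000 bp and 1600 bp in replicate 2, in the spike-in lists. The standard lists gave 3800 bp and 1800 bp in GSK126. For SNAI2, ZEB1 and ZEB2 the spike-in and standard lists gave the same lengths. The score of FN1 at equal numbers of tags was 1487 and 1420 in replicate 1 and 316 and 302 in replicate 2, a log2 ratio of −0.07 in both. SNAI2 had 5000 bp and 4000 bp in replicate 1, and 2800 bp and 2600 bp in replicate 2. The difference for SNAI2 was 600 ± 566 bp (SD, n = 2 pairs), about as large as its spread. ZEB1, whose product represses CDH1 and the microRNA-200 genes, was the 1 gene with longer H3K4me3 after treatment, with 3400 bp and 4400 bp in replicate 1 and 2800 bp and 3000 bp in replicate 2, but its score had log2 ratios of 0.31 and −0.43. ZEB2 had 2400 bp in DMSO and 3200 bp in GSK126 in replicate 1 and 2400 bp and 2000 bp in replicate 2. CDH2 had no H3K4me3 in any list, and the nearest island lay 242 kb upstream of it in replicate 1 and 747 kb downstream in replicate 2.

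Over the 13452 protein-coding genes with H3K4me3 in all 4 standard lists the median log2 ratio of the score was 0.09 and −0.08, with 10th to 90th percentiles from −0.21 to 0.35 and from −0.44 to 0.29. The H3K4me3 scores of TWIST1 (0.42 and 0.15) and ZEB2 (0.46 and 0.14) were higher with GSK126 in both replicates, as was that of SNAI1 (0.06 and 0.69). Those of TWIST2 (−0.54 and −0.20) and FN1 were lower in both. No gene lay outside that percentile range on the same side in both replicates.

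The 5 other lists of genes tied to the transition set the 10 genes in context. The epithelial list (22 genes of junctions, keratins and their regulators) had H3K27me3 over 0 genes in both control replicates and H3K4me3 over 22. These compare with 27.5% and 67.9% of all protein-coding genes. H3K4me3 was shorter with GSK126 in both replicates (spike-in lists) for 10 of the 22, beside 37.2% of all covered genes, and longer for 0, beside 8.00%. CDH1 shared this pattern of H3K4me3 without H3K27me3. Among the genes shorter in both replicates, the 2 largest mean differences were in KRT8, a simple-epithelial keratin, from 25138 to 23138 bp and from 15338 to 11738 bp, and in TJP1, which encodes the tight-junction protein ZO-1, from 8600 to 5600 bp and from 3800 to 2200 bp. At equal numbers of tags, neither summed score was lower with GSK126 in both replicates. The score of KRT8 went from 9814 to 10066 and from 2077 to 1870. That of TJP1 went from 1639 to 1650 and from 375 to 506.

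The mesenchymal list (22 matrix and cytoskeletal genes) had H3K27me3 over 9 genes in both control replicates, beside 27.5% of all protein-coding genes. All 9 were covered over a shorter length with GSK126 in the spike-in lists (89.7% of all covered genes), 4 of them with no island left (31.5%). At equal numbers of tags 6 of 8 were shorter (56.4%) and 1 had no island left (8.92%). Its most covered genes were MMP9, a gelatinase, with 9654 bp (the whole region) in both control libraries and 0 bp in both treated ones of the spike-in lists, and COL5A1, a fibrillar collagen gene, with 192841 and 157600 bp in replicate 1 and 193641 and 173241 bp in replicate 2. The standard lists gave MMP9 9654 bp in both treatments in replicate 1, and 8854 and 5800 bp in replicate 2, and gave COL5A1 201041 and 177241 bp in replicate 1 and 192441 and 183241 bp in replicate 2. H3K4me3 was present over 11 of the 22 (67.9% of all protein-coding genes). It was shorter with GSK126 for 2 of them in the spike-in lists (37.2% of all covered genes) or 5 in the standard lists (37.8%). Of the genes shorter in both replicates of the spike-in lists, the largest mean difference was in ITGA5, an integrin of the fibronectin receptor, from 7650 to 4450 bp and from 3000 to 2200 bp. VIM had at most 3361 bp of H3K27me3 and FN1 had 0 bp, less than these 2 most covered genes of the list. The regions differ in length, from 11.4 kb for VIM to 205 kb for COL5A1. Other genes of the list, such as ACTA2, COL1A2, COL3A1, FBN1 and LOX, had 0 bp in the spike-in lists, as FN1 did.

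Of 12 other transcription factors of the transition, 6 had H3K27me3 in both control replicates, beside 27.5% of all protein-coding genes. In the spike-in lists 5 of the 6 were covered over a shorter length with GSK126, beside 89.7% of all covered genes. In the standard lists 3 of 6 were shorter (56.4% of all covered genes) and 2, PRRX1 and FOXC2, were longer (5.46%). Here too the direction of some genes depended on the normalization. GSC, a homeobox gene, had 2091 and 0 bp in replicate 1 and 3891 and 2891 bp in replicate 2 of the spike-in lists, but 3091 and 2491 bp, and 3091 and 3891 bp, in the standard lists. SNAI3, the third SNAIL family gene, had 7820 and 505 bp in replicate 1 and 4420 and 315 bp in replicate 2 of the spike-in lists, and 4620 and 3220 bp, and 5820 and 2020 bp, in the standard lists. SNAI3 had both marks at its start, as SNAI1 did, whereas SNAI2 had H3K4me3 alone. H3K4me3 was shorter in both replicates of the spike-in lists for 3 of 8 genes, beside 37.2% of all covered genes. Among these 3 the largest mean differences were in HMGA2, from 8561 to 8161 bp and from 5600 to 4400 bp, and TCF3, from 5125 to 4000 bp and from 3200 to 2800 bp.

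Of 12 genes of TGF-beta signalling, a main inducer of the transition, 12 had H3K4me3 and 1, TGFB3, had H3K27me3 in both control replicates. Among all protein-coding genes 67.9% and 27.5% did. H3K27me3 over TGFB3 covered 17161 and 0 bp in replicate 1 and 21915 and 0 bp in replicate 2 of the spike-in lists. At equal numbers of tags it covered 15761 and 15161 bp in replicate 1 and 16161 and 1161 bp in replicate 2. TGFBR3 had 4600 bp in DMSO in replicate 1 and 0 bp in the other 3 spike-in lists. H3K4me3 was shorter in both replicates of the spike-in lists for 5 of 12, beside 37.2% of all covered genes. Among these 5 the largest mean differences were in SMAD3, from 24800 to 23400 bp and from 13600 to 7200 bp, and TGIF1, from 16600 to 15000 bp and from 9200 to 8000 bp. No gene of the 5 lists was covered by a longer length of H3K4me3 with GSK126 in both replicates of the spike-in lists, beside 8.00% of all covered protein-coding genes.

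The microRNA-200 family, whose members repress ZEB1 and ZEB2, is encoded by 5 genes, MIR200A, MIR200B and MIR429 on chromosome 1 and MIR200C and MIR141 on chromosome 12. The mature microRNAs (RefSeq, GRCh38.p14) are printed with the seed, bases 2 to 8, in capitals, since the seed defines the 2 groups of the family.
miR-200b-3p: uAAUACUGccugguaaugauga
miR-200c-3p: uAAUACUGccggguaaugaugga
miR-429: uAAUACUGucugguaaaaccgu
miR-200a-3p: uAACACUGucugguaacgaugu
miR-141-3p: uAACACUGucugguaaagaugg
The first 3 share one seed and the last 2 share the other. None of the 5 genes had H3K27me3 in both control replicates, and 4 had H3K4me3, beside 27.5% and 67.9% of protein-coding genes. H3K4me3 covered the whole region of MIR200C (2068 bp) and of MIR141 (2095 bp) in DMSO and GSK126 of both replicates. It covered 2095 bp of MIR200B in replicate 1 and 1317 bp in replicate 2 with either treatment. MIR200A had 2090 and 1958 bp in replicate 1 and 558 bp with either treatment in replicate 2, and MIR429 had 1616 and 816 bp in replicate 1 and 0 bp in replicate 2. The genes of each cluster lie close together and share islands, so they are not separate observations. The 2 gene regions on chromosome 12 were wholly covered in all 4 libraries, so a rise in cover could not be seen there. ZEB1 and ZEB2 were also under H3K4me3 in the same cells.

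The gene most like each H3K27me3-covered gene was sought only among the 73 genes of the other lists. By the mean absolute difference of covered share over the 14 lists of islands, these were S100A4 for VIM (7.87 percentage points), SMAD7 for SNAI1 (6.38), TNC for TWIST1 (1.86) and PDGFRB for TWIST2 (8.73). Only PDGFRB, which encodes a platelet-derived growth factor receptor, shared a broad H3K27me3 domain, with 31235 and 8635 bp in replicate 1 and 33635 and 15000 bp in replicate 2 (spike-in lists), and 28835 and 27035 bp, and 26435 and 16835 bp, in the standard lists. S100A4 and SMAD7 had no H3K27me3 in the spike-in lists, so their likeness to VIM and SNAI1 rested on H3K4me3.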

How the data were processed

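ChIP-seq of H3K27me3 and H3K4me3 was analysed in 8 PC9 libraries from the lists of enriched islands that the authors deposited. By the study's methods, 50 nt tags were mapped to hg19 (GRCh37) with BWA, filtered for a mapping quality over 25 and made equal at random (standard) or scaled by D. melanogaster tags (spike-in). Processing notes of the submitters also name SAMtools 0.1.18. SICER then called islands against a random background (windows of 200 bp, E-value 1, with gaps allowed up to 600 bp in H3K27me3 and up to 200 bp in H3K4me3 data) in each library without pooling replicates. The value in the deposited lists is the SICER score of an island. No tag counts were used here, so intervals for counting error are not given.

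From these lists, the length of each gene (GENCODE v44lift37, GRCh37) plus 2 kb upstream under islands was computed with Python 3.11.15 and NumPy 2.4.6. No island lay beyond the end of a GRCh37 chromosome (0 found). GSK126 and DMSO were compared within a replicate. Replicate numbers follow the order of deposition, and the pairs are those whose standard lists held equal numbers of tags. Tags per window were recovered from the scores of 2-window islands. The coverage and overlap code was tested on simulated islands. The 10 genes, the other lists and the tests were chosen with earlier results of these data known. Named genes were all 10 genes, the microRNA-200 genes, and from each other list the 2 with the largest H3K27me3 share and the 2 with the largest difference of H3K4me3 in each direction. The gene of the other lists nearest to each H3K27me3-covered gene was named as well. PRRX1 and FOXC2, and the mesenchymal genes ACTA2, COL1A2, COL3A1, FBN1 and LOX, were named after their values were seen. A gene and a sequence that this rule or the analysis would have given are not reported here. The alternatives were a stricter score, a common score floor, a minimum island length, other regions, each replicate left out, no pairing, and, chosen after seeing the data, the canonical transcript and the set without TWIST2.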

Additional observations from a re-analysis of the deposited data

How the results depend on the processing

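Of 92 alternative values, 77 stayed within the spread between replicates or within 1.5 times the count, 15 moved, and 0 changed direction. Part of this outcome was fixed in advance. With 2 pairs, a sum with a replicate left out always stays within the SD, and a count has no direction to change. These totals are therefore no measure of robustness. For the summed H3K27me3 length in the spike-in lists (log2 ratio −0.51) the values were −0.69 with scores at least 2 times the lowest, −0.71 with a common score floor, −0.94 within 2 kb of the gene start, −0.55 with 5 kb upstream and −0.39 for the canonical transcript, the last chosen after seeing the data. In the standard lists (−0.19, with 2 genes lower) the value was −0.03 with the stricter score, and 1 gene was lower with the stricter score (TWIST2), within 2 kb of the start (SNAI1) and without TWIST2 (SNAI1). Within 2 kb of the start, the H3K4me3 sum of the spike-in lists was −0.01, and 2 genes (FN1 and SNAI2) were lower in the spike-in and in the standard lists. The count of genes with both marks at the start was 1 with the stricter score, the common floor or the minimum length, and VIM was the gene that dropped out. Leaving out a replicate gave H3K27me3 sums from −0.53 to −0.48 (spike-in) and from −0.29 to −0.09 (standard), and H3K4me3 sums from −0.25 to −0.09 (spike-in) and from −0.33 to −0.06 (standard). Without the replicate block, that is without pairing, the 4 sums were −0.51, −0.20, −0.20 and −0.24, and no direction changed. Without TWIST2 no log2 ratio could be given for H3K27me3 in the spike-in lists, since a treated library was at 0. The causes were not tested. Depth limits every absence of an island, most of all in the treated H3K27me3 spike-in lists and in the H3K4me3 lists of replicate 2.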
